A study of Mus musculus with 48 samples.

Results

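The loci described here are the widest stretches of methylated DNA in a survey of the mouse amygdala, those of 3000 bp or more on chromosomes 1 to 19. They were selected on their width (end minus start plus 1), which the study's peak calling set from the same reads as the counts, so width and everything that follows from it directly is given as a description with no test. There were 3921 such loci among 187695 in all, or 2.16% of those on the autosomes, and they are called wide loci below. The other 178028 autosomal loci served for comparison. A further 214 loci of this width lay on chromosomes X and Y and were not included. The narrowest 2 wide loci were exactly 3000 bp, near Tada1 at chr1:166352039-166355038 (57.4 counts per kb) and near Vnn3 at chr10:23870918-23873917 (48.7 counts per kb), and the closest 2 below the limit were 2999 bp, in Sptb (39.2 counts per kb) and Gm17031 (44.5 counts per kb).

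The DNA came from adult male mice of 4 months on a C57BL/6 background by the labels (per the study's methods their parents were backcrossed on C57BL/6N), with both amygdalae of a mouse pooled and 1 library per mouse. The mice carried both, one or no functional alleles of Tph2, which encodes the neuronal enzyme of serotonin synthesis (Tph2+/+, Tph2+/- and Tph2-/-), and the null allele was constitutive rather than limited to a cell type. As pups they had either spent 3 h daily away from their mother between postnatal days 2 and 15 (maternal separation, MS) or grown up without this stress (C), which gave 6 groups of 8. All mice, controls included, were housed alone after weaning and had passed a series of behavioral tests. A protein with a methyl-CpG-binding domain (MBD) pulled methylated fragments out of the sheared DNA, so a higher count stands for more captured DNA at a locus. Total counts were 7.72 to 14.1 Mcounts per library, and 2 Tph2-/- MS libraries of low totals were left out, which leaves 46. The counts carry no expression values, so the tissue could not be checked against markers, and in bulk tissue a change in the share of cells and a change per cell cannot be told apart.

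In mammalian DNA most methyl groups sit on the cytosine of CpG dinucleotides. Copies of transposable elements and satellite arrays are usually kept densely methylated, as are the bodies of many genes, while CpG islands at active promoters are usually free of methylation. The MBD protein binds best where many methylated CpGs lie close together, so wide captured stretches can be repeats, CpG-rich exons or tandem arrays.

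All 3 kinds were present among the wide loci. By shared sequence most of them fell into 5 groups, here named A to E by size, whose members share at least 20% of their sampled 20-base words with 1 representative locus of their group. Group A held 1659 loci, group B 452, group C 222, group D 69 and group E 67, and 1452 loci belonged to none. No repeat library was used, so the groups carry no family names. The 40-base stretch with at least 2 CpGs found in most members of each group is shown because it is what these loci have in common, read 5′ to 3′ from GRCm38 (RefSeq) with CpG in capitals.
Group A, chr1:5809230-5809269, minus strand, in 1068 of 1659 members: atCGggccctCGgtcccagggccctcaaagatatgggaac
Group B, chr1:6692965-6693004, plus strand, in 309 of 452 members: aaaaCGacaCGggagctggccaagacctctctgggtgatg
Group C, chr1:85141956-85141995, minus strand, in 56.3% of its 222 members: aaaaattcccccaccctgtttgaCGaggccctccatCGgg
Group D, chr1:131644764-131644803, plus strand, in 64 of 69 members: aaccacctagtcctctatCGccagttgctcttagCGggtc
Group E, chr1:52313584-52313623, minus strand, in 34 of 67 members: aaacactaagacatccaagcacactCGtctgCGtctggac

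The remaining sequences show the other kinds of wide locus, again 5′ to 3′ on the plus strand of GRCm38 with CpG in capitals. All but Ahnak2 are shown at their most CpG-rich place (120 bases, or 1 repeat unit). The 120 bases of Ahnak2 were picked for their match to the bases 519 further on, and CpGs decided only between equal matches. Ahnak2 stands for coding exons, Rn18s-rs5 for ribosomal DNA, the group E unit and the chromosome 9 unit for tandem arrays, Gm9046 for the loci that differed between genotypes, and Mpo for the loci with the fewest counts per kb.
Ahnak2, chr12:112775979-112776098, 11 CpGs: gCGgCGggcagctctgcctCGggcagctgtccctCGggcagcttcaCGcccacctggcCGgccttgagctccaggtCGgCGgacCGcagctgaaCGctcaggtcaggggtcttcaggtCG
Rn18s-rs5, chr17:39848434-39848553, 23 CpGs: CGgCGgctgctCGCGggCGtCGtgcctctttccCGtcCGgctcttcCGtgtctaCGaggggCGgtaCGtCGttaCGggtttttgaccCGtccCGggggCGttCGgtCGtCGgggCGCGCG
Group E unit, chr16:76641568-76641775, 14 CpGs: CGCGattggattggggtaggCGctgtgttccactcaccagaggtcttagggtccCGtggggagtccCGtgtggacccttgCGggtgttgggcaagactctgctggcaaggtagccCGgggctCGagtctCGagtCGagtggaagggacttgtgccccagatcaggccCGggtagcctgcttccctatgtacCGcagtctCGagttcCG
Chromosome 9 unit, chr9:3000240-3000473, 8 CpGs: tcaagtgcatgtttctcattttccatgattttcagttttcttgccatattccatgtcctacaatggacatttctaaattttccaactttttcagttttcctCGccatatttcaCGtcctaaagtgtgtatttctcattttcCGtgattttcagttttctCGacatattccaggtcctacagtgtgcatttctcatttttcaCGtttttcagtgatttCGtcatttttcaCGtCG
Gm9046, chr10:118343212-118343331, 11 CpGs: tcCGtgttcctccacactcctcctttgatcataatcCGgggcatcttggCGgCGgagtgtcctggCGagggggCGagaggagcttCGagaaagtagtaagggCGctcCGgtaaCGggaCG
Mpo, chr11:87801095-87801214, 8 CpGs: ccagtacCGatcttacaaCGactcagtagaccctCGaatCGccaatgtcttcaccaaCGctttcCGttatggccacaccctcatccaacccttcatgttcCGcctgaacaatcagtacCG

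Wide loci held more counts per kb than narrower ones. The median wide locus had 57.4 counts per kb, averaged over the 46 libraries, against 28.1 for loci under 1000 bp, 35.1 for loci of 1000 to 1999 bp and 41.2 for loci of 2000 to 2999 bp. The 10th and 90th percentiles were 36.6 and 82.1 for wide loci and 24.1 and 43.2 for all narrower loci, so the ranges overlapped. In each of the 46 libraries the median rose through the 4 width classes in this order. The wide median averaged 58.1 ± 9.23 counts per kb over libraries (SD, n = 46), with the lowest library at 38.1 and the highest at 88.3, and the ratio of the wide to the narrower median averaged 1.92 ± 0.230 (SD, n = 46). The wide loci took 7.81% of the bases and 34.1% of the autosomal counts, or 13.6% of the counts once loci with more than 0.5% of all counts were set aside.

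**Figure D1:**
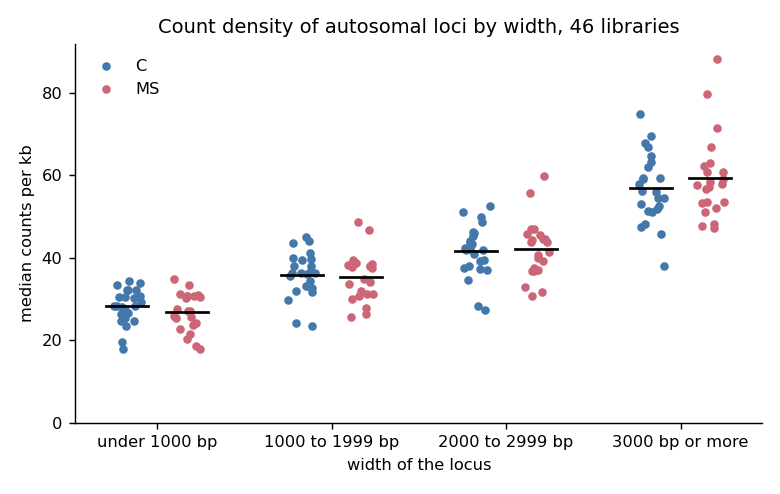
Median counts per kb of autosomal loci (y axis) in 4 classes of locus width (x axis), with 1 point per library in C and MS and a bar at the mean. The mean over all 46 libraries climbs from 27.6 counts per kb in loci under 1000 bp to 58.1 in loci of 3000 bp or more, and C and MS libraries overlap in every class.

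The wide loci were also richer in CpG and in repeats. Their median CpG density was 26.3 per kb against 17.9 in narrower loci, and a median of 88.9% of their bases was marked as repeats in the reference against 22.02%. Of the wide loci 2645 (67.5%) were at least 50% masked, compared with 22.8% of the narrower loci. At like CpG density the wide loci still held more counts per kb. From 20 to 25 CpG per kb the medians were 48.2 (1032 wide loci) and 32.1 (40878 narrower loci), from 25 to 30 they were 59.99 and 35.9, from 30 to 35 they were 77.4 and 49.8, and from 35 to 60 they were 83.5 and 71.9. The difference was larger where the repeats were: the median was 67.7 counts per kb in wide loci at least 50% masked and 33.6 in narrower loci of that kind, against 40.96 and 29.3 in loci with less masking.

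Groups A and B were alike in width but not in how they lay in their repeats. The members of group A had a median width of 3233 bp, 29.7 CpG per kb and 72.7 counts per kb, and lay on all 19 autosomes, with 28.3% of them inside an annotated gene. A locus of this group usually covered only part of a longer masked block, with a median of 7285 bp. In 1210 of the 1659 it ended within 300 bp of one side of the block and left at least 1000 bp of it on the other side, and the part of the block outside the locus had a median of 16.7 CpG per kb. In 973 (58.6%) the first and last 600 bases of the block shared at least 30% of their 20-base words in the same orientation, that is, the block began and ended with the same sequence, as the long terminal repeats of retrotransposons do. Group B had a median width of 3388 bp, 25.5 CpG per kb and 54.8 counts per kb, its blocks were hardly longer than the loci (median of 3431 bp), and 53.3% of them had such ends.

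Groups C, D and E were wider and denser. The median width was 6890 bp in group C, 7995 bp in group D and 8326 bp in group E, with 74.8, 80.9 and 74.2 counts per kb. None of the blocks of groups D and E had matching ends at this limit, and in group C 34.2% did. Short blocks were not compared and counted as without matching ends. The median block of group D, 1604 bp, was too short for the comparison, so most of that group was not examined. Group D was the richest in CpG at a median of 35.6 per kb, although a median of only 56.8% of its bases was masked. In 29 members, all of them in group E, the commonest distance between repeated 24-base words was 208 bp, the length of the unit printed above, and these had a median of 47.5 CpG per kb and 146 counts per kb. Units of about this length are known from the promoter end of some mouse L1 elements, a family of retrotransposons without long terminal repeats. The 1452 loci outside the groups had a median of 41.8 counts per kb, and 76.4% of them lay inside a gene, more than in any group.

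**Figure D2:**
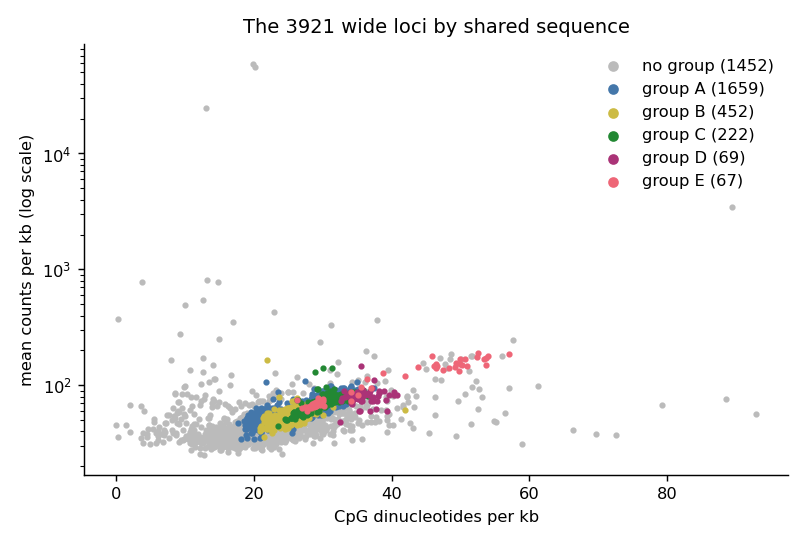
Mean counts per kb over 46 libraries (y axis, log scale) against CpG dinucleotides per kb (x axis), with 1 point per wide locus coloured by shared sequence. Groups A to D form a band between about 20 and 40 CpG per kb, the tandem arrays of group E reach further right and higher, and a few loci of no group lie far above the rest at up to 59644 counts per kb.

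The densest wide loci included satellite-like arrays and ribosomal DNA. The locus near Gm9637 at chr14:19415218-19419856 had 59644 ± 5364 counts per kb (SD, n = 46), the one at chr9:2999846-3038818, over the miRNA annotation Mir101c, had 55800 ± 5204, and the one near Gm33780 at chr2:98661728-98665716 had 24689 ± 2292. The chromosome 9 locus alone was 38973 bp wide and took 20.1% of all counts. Its commonest repeat distance was 234 bp, the unit length of the mouse major satellite of pericentromeric chromatin. The locus of Rn18s-rs5, a ribosomal RNA sequence, at chr17:39842520-39849260 had 3480 ± 1951 counts per kb and 89.5 CpG per kb. The other 4 of the 8 densest were near Gm3318 on chromosome 10 (813 counts per kb), in Gm10925 on chromosome 1 (774), in an intron of 2700054A10Rik on chromosome 17 (773) and in an intron of Tmem267 on chromosome 13 (540). How many copies of these sequences the animals carry was not measured.

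The least dense wide loci were mostly in introns. They lay near Halr1 at chr6:52088953-52092085 (24.96 counts per kb, between genes), in Arhgap22 (25.6), in Mpo, the gene of a neutrophil peroxidase (25.8, with 26.9% of its bases coding), in Shisa8 (26.01) and in Lama1, the gene of a laminin chain (26.6). Even these held 27 or more counts in every library used.

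The 10 widest loci ranged from 13701 to 53998 bp. A locus of 53998 bp at chr11:3126535-3180532 and a second of 19782 bp at chr11:3180545-3200326 lay in Sfi1, which encodes a centrosomal protein, with 275 ± 57.6 and 494 ± 112 counts per kb (SD, n = 46). Those at chr6:47736955-47773585 (36631 bp, Gm52861, 198 counts per kb), chr6:47651299-47687118 (35820 bp, Gm40365, 180.8 counts per kb) and chr8:55345595-55380891 (35297 bp, Gm46063, 129.5 counts per kb) lay in predicted genes, and 87.3 to 98.5% of their 24-base words recurred within the locus. Beside the chromosome 9 array, the last 4 of the 10 widest were smaller: 2 were in C130026I21Rik on chromosome 1 (18013 and 13816 bp), 1 was in Hjurp, the gene of a chaperone of centromeric histone (13973 bp), and 1 was Flg. Flg encodes filaggrin, a protein of the skin barrier built from repeated units, and its locus at chr3:93279728-93293428 was 92.5% coding, had 56.0 CpG per kb and held 179 ± 69.2 counts per kb.

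Among the 416 wide loci with under 10% masked bases, introns made up 51.2% of the bases and coding sequence 33.9%. Narrower loci of any masking had 46.3% and 5.36%, so these shares differ in masking as well as in width. In loci with under 50% masked, coding sequence made up 16.1% of the bases of wide and 7.07% of those of narrower loci. Introns made up 53.5% and 51.6% there. Of the 416 loci 394 overlapped a gene and 25.7% were at least 50% coding. The widest was in Plec, the gene of the cytoskeletal linker plectin, at chr15:76171856-76184302: 12447 bp of which 83.4% were coding, with 52.3 CpG per kb and 109 ± 36.8 counts per kb. The next were in Mroh2a (12098 bp, 82.3% intron, 12.9 CpG per kb), Itpr3, a channel for calcium release (10177 bp), Ahnak2, a giant scaffold protein (9929 bp, 71.6% coding), Ank3, the gene of ankyrin-G, which anchors channels at the start of the axon (9214 bp, 84.2% coding), Nbeal2 (8742 bp), Kif26a (7958 bp), Lama5 (7676 bp), Prdm16 (7532 bp, 95.4% intron) and Ttn, the gene of titin (7343 bp, 91.8% coding). Ahnak2 had 57.6 CpG per kb and 245 ± 104.7 counts per kb. Its 120 printed bases were picked for the best match 519 bases downstream, and there they recurred without a change. In Ank3 the coding locus had 49.6 ± 10.2 counts per kb at 32.9 CpG per kb.

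Wide loci with few CpGs over their whole length also existed. The following were chosen after their values were seen. In 16 wide loci there were 5 CpGs per kb or fewer, and a locus in an intron of Ide, at chr19:37298595-37301936, had no CpG in its 3342 bp of reference sequence but held 45.7 ± 13.7 counts per kb (SD, n = 46), with 64 to 235 counts in each library. It is an array of a 29-bp unit, at 73.5% of its 24-base words. A locus in Gm20590 on chromosome 13 with 0.326 CpG per kb held 371 ± 106.1 counts per kb. The densest of the 16, in 2700054A10Rik, held 773 ± 229 counts per kb at 3.76 CpG per kb. Whether counts at such loci reflect methylated CpGs was not tested.

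In the share of bases between genes the wide loci differed from the narrower ones in opposite directions with and without repeats. Of their bases 56.2% lay between genes against 42.96% in narrower loci. In loci at least 50% masked the shares were 73.6% and 68.3%, while in loci with less masking they were 22.2% and 34.7%. A gene start lay in 6.50% of the wide and 3.21% of the narrower loci. With under 50% masked the shares were 11.4% and 3.75%, and with at least 50% masked 4.12% and 1.41%. These shares are per locus and were not corrected for width, and a longer locus meets a gene start more often by its length alone. Of the loci with a gene start 255 were wide and 5720 narrower, while wide loci took 7.81% of the bases. Loci of 2000 to 2999 bp held a gene start in 6.93%, slightly more often than the wide loci. The share of loci that were wide ran from 1.69% on chromosome 19 to 2.49% on chromosome 14, and the number per Mb from 1.16 on chromosome 6 to 2.101 on chromosome 5. The last 5 Mb of a chromosome held 5.79% of the wide loci, 5.17% of the narrower loci and 6.10% of the loci of 2000 to 2999 bp. With under 50% masked it held 9.33% of the wide and 5.40% of the narrower loci. Within 10000 bp of another wide locus lay 928 of them (23.7%). The fullest 1-Mb window, chromosome 1 from 85000001 to 86000000, held 25.

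In 63 genes there were 3 or more wide loci. Wwox, a tumour suppressor gene that spans a common fragile site, held 22 of them, with 83036 bp in all and a median of 38.04 counts per kb. Camta1, which encodes a transcription activator, held 11, Gse1 and Zfp469 held 8 each, and Abcc4, Hlcs and Prdm16 held 7 each. Of the antigen receptor loci Igh held 5, Tcra 4 and Igk 3.

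The 8 gene lists held few wide loci. Of 1078 loci in giant cytoskeletal, extracellular and cadherin genes 38 (3.53%) were wide, in 20 of the 56 genes with any locus, among them Plec, Ahnak2, Ank3 and Lrp1b, whose widest locus (7546 bp) was a group C sequence in an intron. Of 876 loci in chromatin and nuclear scaffold genes 21 were wide (2.40%), in 9 of 43 genes, with Prdm16, Chd7 (5816 bp), Ahdc1 (5428 bp, 88.2% coding) and Bahcc1 (5181 bp) the widest. Active-zone and postsynaptic scaffold genes had 8 of 530 loci (1.51%), among them 2 in the coding sequence of Bsn, the gene of the presynaptic protein bassoon (5071 and 3383 bp), 1 in Caskin2 and a group A sequence in an intron of Dlg2. Imprinted genes had 8 of 435 (1.84%), with 2 in Gnas at chr2:174294853-174301381 and chr2:174283768-174287454, which held 62.6 ± 24.96 and 46.1 ± 15.5 counts per kb at 52.5 and 51.5 CpG per kb, 1 in Rtl1 (95.7% coding) and a group A sequence in Calcr.

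Clustered protocadherins, adhesion proteins that give neurons their identity, had 5 of 68 loci (7.35%). The first exons of Pcdha1 (chr18:36929786-36932934, 75.8% coding, 64.9 ± 16.5 counts per kb) and Pcdha2 (chr18:36938570-36941856, 53.6 ± 14.6) were among them, beside 2 group A sequences in introns there. None of the 3 loci in Hox genes was wide. Serotonin genes had 2 of 88 loci (2.27%), Htr1d at chr4:136441949-136445755, which covers 29.6% coding sequence of this receptor gene, and a group A sequence in an intron of Htr1f. Stress axis genes had 2 of 95 (2.11%), both group A sequences in an intron of Nr3c2, the mineralocorticoid receptor. For reading these shares, 2.16% of all autosomal loci were wide.

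To ask whether Tph2 genotype changed capture at the wide loci, Tph2-/- was compared with Tph2+/+ over C and MS. All differences were tested with edgeR's quasi-likelihood test over all 187695 loci, and loci were counted at the limits used in the study, an unadjusted p under 0.01 with a log2 fold change beyond 0.2. This called 8 wide loci, or 0.204% of them, against a background of 0.748% of all loci. At an adjusted p under 0.05 it called 4 wide loci, where the background was 0.0139%. The 4 wide loci all lay on chromosome 10 and were lower in Tph2-/- mice, as were all 26 loci called at this limit. Of the 4, 3 lay in Gm9040, Gm9046 and Gm9048, predicted genes annotated as pseudogenes, with 65.2 to 71.1% of their bases in noncoding exons. Each of the 3 aligned over 100% of its length elsewhere in the reference at 95% identity or better. The other was a group B sequence in an intron of Gm32663, which was not searched for copies because it was at least 50% masked.

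The lowest, median and highest values of Gm9046 (chr10:118340784-118344240), in TMM-normalised counts per Mcount (CPM), were 10.6, 14.3 and 15.7 for unstressed Tph2+/+ mice and 13.7, 15.9 and 18.6 after MS. Unstressed Tph2+/- mice had 8.76, 10.6 and 11.96, and 9.74, 10.5 and 12.6 after MS. Unstressed Tph2-/- mice had 5.17, 6.97 and 10.3, and 6.72, 7.70 and 10.4 after MS. No Tph2-/- library reached the lowest Tph2+/+ library, and the Tph2+/- libraries lay between with overlap on both sides. On the log2 scale Tph2-/- mice differed by -0.98 ± 0.09 (SE; adjusted p = 5.68e-14 by edgeR's quasi-likelihood test) and Tph2+/- mice by -0.49 ± 0.09 (SE; adjusted p = 0.0131 by edgeR).

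At Gm9048 (chr10:118346710-118349742) Tph2+/+ libraries held 10.2 to 15.5 CPM and Tph2-/- libraries 4.61 to 10.1 CPM, again with no overlap, and the log2 difference was -0.88 ± 0.10 (SE; adjusted p = 1.78e-10 by edgeR). At Gm32663 (chr10:118030298-118033370) the groups overlapped, since the highest Tph2-/- MS library had 18.5 CPM against a lowest Tph2+/+ library of 12.8 CPM, and the log2 difference was -0.73 ± 0.09 (SE; adjusted p = 1.10e-07 by edgeR). Gm9040 (chr10:118324945-118328074) overlapped as well, from 5.17 to 10.6 CPM in Tph2-/- and from 7.42 to 13.9 CPM in Tph2+/+ libraries, and differed by -0.68 ± 0.10 on the log2 scale (SE; adjusted p = 5.11e-06 by edgeR).

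These 4 loci lay within 319 kb of each other and 2.85 to 3.16 Mb from the end of Tph2 (chr10:115078641-115185022), which itself holds no wide locus. Another wide locus between them, also in Gm32663 at chr10:118070334-118073502, had a log2 fold change of -0.07 (SE 0.09). Within 10 Mb on each side of Tph2 there were 43 wide loci, and the 39 others ranged from -0.07 to 0.14 on the log2 scale. A count also depends on how many copies of a sequence an animal carries, and whether the lower counts reflect methylation or sequence was not tested. At the limits of the study the other 4 called wide loci were higher in Tph2-/- mice and failed the adjusted limit: near Dancr (log2 fold change of 0.30), Ahdc1 (0.24), near 1700021F07Rik (0.23) and Kifc1 (0.22), named after their values were seen. Of the calls at these limits 1 was higher without S18 to S26, 1 with Tph2-/- MS replicates 2 and 3 left out in place of the lowest totals, 1 with the replicate number as a block, 10 with DESeq2 and 72 of 76 with all 48 libraries.

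**Figure D3:**
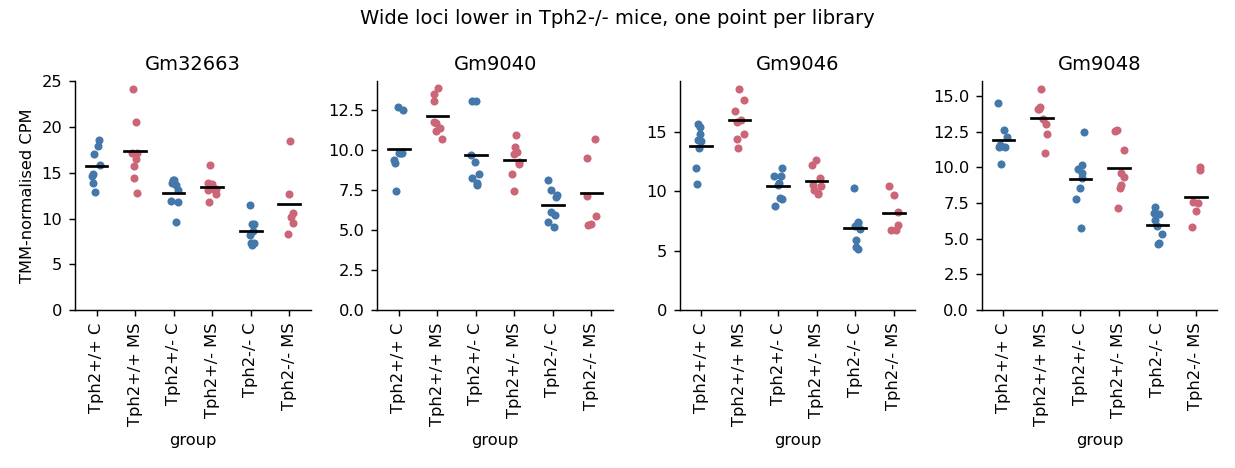
TMM-normalised CPM (y axis, from 0) at the 4 wide loci lower in Tph2-/- mice, by group (x axis), with 1 point per library and a bar at the group mean. At Gm9046 and Gm9048 all Tph2-/- points lie under all Tph2+/+ points, and the Tph2+/- means lie between.

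In Tph2+/- against Tph2+/+ mice 3 wide loci passed the limits of the study, Gm9046, Gm9048 and Gm32663, where the background was 0.546% of all loci. They were lower in Tph2+/- mice, by 0.49, 0.41 and 0.33 on the log2 scale. Only Gm9046 passed the adjusted limit, at a background of 0.00213%. The 2 genotype comparisons share the Tph2+/+ libraries.

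MS was compared with C over the 3 genotypes. The labels number the libraries S1 to S48, controls hold S1 to S17 and S42 to S48, and MS libraries hold S18 to S41, so MS and the order of the samples cannot be told apart. At the limits of the study 475 wide loci (12.1%) were called against a background of 3.63%, and 432 of them were higher in MS, where 2.28% of all loci were called higher. The share of loci called rose with width, from 2.30% under 1000 bp through 4.90% and 6.08% to 12.1%, and the median log2 fold change was -0.03, 0.03, 0.07 and 0.12 in the 4 classes. The median standard error was also smaller in wide loci (0.07) than over all loci (0.13). At an adjusted p under 0.05 edgeR called 0 wide loci (1661 of the 3921 had an unadjusted p under 0.05), at a background of 0.0128%, while DESeq2 called 315.

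The share of loci called for MS differed between the sequence groups. Among called loci were 238 of group A (14.3%), 21 of group B (4.65%), 38 of group C (17.1%), 43 of group D (62.3%) and 1 of group E (1.49%), all of them higher in MS. Of the wide loci with under 10% masked 39 (9.38%) were called, 37 of them higher. The largest share was in group D, whose summed counts in the lowest, median and highest library were 3023, 3733 and 4101 CPM for unstressed Tph2+/+ mice and 3524, 4259 and 5888 CPM after MS. For Tph2+/- they were 3205, 3801 and 4360 CPM without stress and 3405, 4007 and 5802 CPM with it, and for Tph2-/- 3399, 3930 and 4461 CPM without and 3306, 4444 and 7880 CPM with it. The MS groups reached higher than the C groups of the same genotype but overlapped with them in each.

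Of the 8 MS libraries used from S18 to S26, 4 lay above all other libraries in their share of counts in wide loci, and 4 did not. Counts in wide loci per 1000 counts in narrower autosomal loci, without the loci over 0.5% of all counts, had a mean of 175 ± 16.5 there (SD over 8 libraries), from 146 to 199. The other libraries used ranged from 141 to 175, and S18, S23, S25 and S26 lay within that range. The 17 control libraries before them (S1 to S17) were at 154 ± 6.21, the 14 MS libraries after them (S27 to S41) at 155.7 ± 8.45 and the last 7 controls (S42 to S48) at 155 ± 11.7. The slope of log2 counts on CpG density over the narrower loci moved in the same direction, with a mean of 0.0836 per SD of CpG density in S18 to S26 and of -0.0172, -0.0320 and -0.0449 in the runs S1 to S17, S27 to S41 and S42 to S48. The labels mark no boundary at S26. All 8 libraries used from this run are MS libraries, and 4 of them had the highest shares. Leaving them out therefore cuts the number of MS mice and takes away the highest shares, and both bear on the calls. Without S18 to S26, which leaves 38 libraries, 34 wide loci were called (0.867%, 14 of them higher in MS) against 1.26% of all loci, and the median log2 fold change of the wide loci was 0.02. Only 2 of group A, 1 of group B and none of groups C, D and E were then called. Of these 34 loci 21 were among the 475, that is 61.8% of the 34 and 4.42% of the 475. With the slope as a covariate, an alternative added after the data were seen, 34 were called as well, 11 of them higher in MS. With all 48 libraries 1275 were called, and with Tph2-/- MS replicates 2 and 3 left out in place of the lowest totals 6.94% were called.

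**Figure D4:**
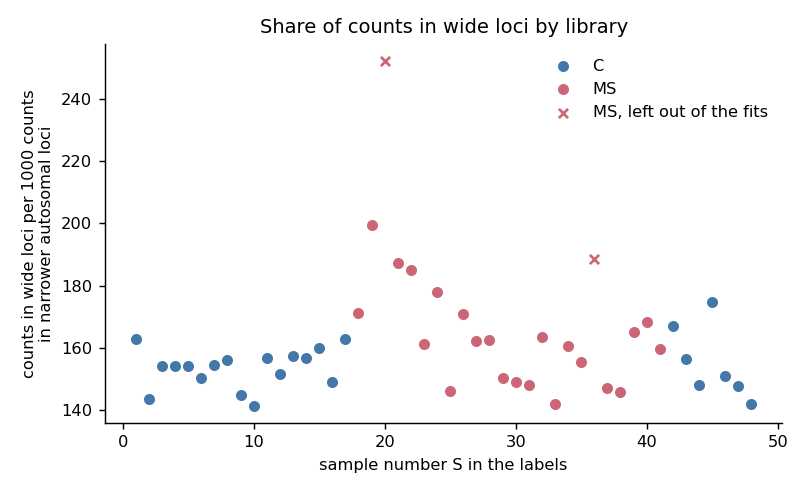
Counts in wide loci per 1000 counts in narrower autosomal loci (y axis) against the sample number in the labels (x axis), with 1 point per library in C and MS and crosses for the 2 libraries left out of the fits. Most libraries lie between 141 and 175, and the highest points, up to 252 in a library that was left out, belong to MS, most of them in S18 to S26.

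**Figure D5:**
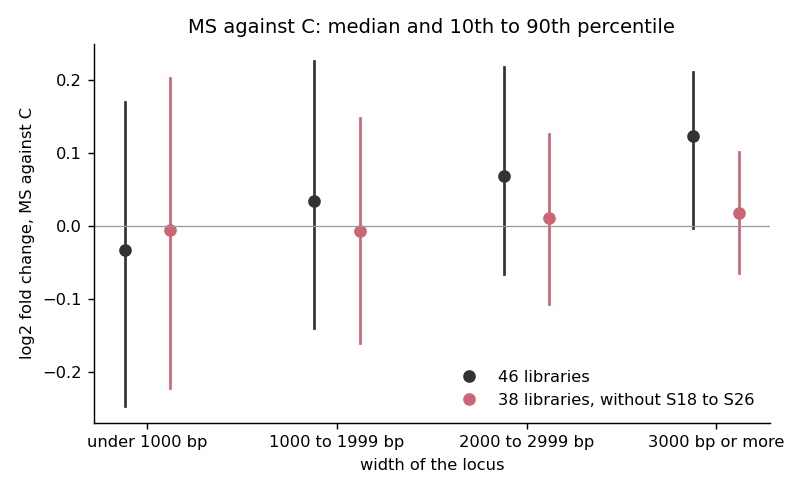
Log2 fold change of MS against C (y axis) by width of the locus (x axis), with points at the median over loci and lines from the 10th to the 90th percentile, for 46 libraries and for 38 without S18 to S26. The median of the wide loci falls from 0.12 to 0.02 when S18 to S26 are left out.

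By group the unstressed mice had means of 151 ± 6.37 (Tph2+/+), 155.5 ± 10.1 (Tph2+/-) and 155 ± 7.30 (Tph2-/-), with the SD over 8 libraries. Their MS counterparts had 163 ± 12.6 and 159 ± 12.9 over 8 libraries and, for Tph2-/-, 166 ± 21.3 over 6. The ranges overlapped between all groups, and no test was made.

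The wide loci with the smallest p for MS failed the adjusted limit with edgeR and passed it with DESeq2. The locus near Gm17019 at chr5:15021615-15025242 differed by -0.40 ± 0.08 on the log2 scale (SE; adjusted p = 0.0544 by edgeR's quasi-likelihood test). In Tph2+/+ mice its lowest, median and highest values were 17.6, 20.96 and 27.3 CPM without stress and 11.1, 16.7 and 23.003 CPM with it. In Tph2+/- mice they were 15.3, 20.9 and 25.1 CPM, and 11.2, 17.5 and 20.9 CPM with stress, and in Tph2-/- mice 15.1, 21.3 and 26.7 CPM, and 10.1, 13.6 and 24.5 CPM with it. The medians were lower in MS in each genotype, and C and MS overlapped in each. A locus near Smgc at chr15:91906074-91910838, an array of a 489-bp unit, was higher in MS by 0.28 (SE 0.06, adjusted p = 0.0635 by edgeR) and a locus near Emid1 at chr11:5167338-5171028 by 0.30 (SE 0.07, adjusted p = 0.064 by edgeR). Without S18 to S26 the log2 differences were -0.25, 0.18 and 0.15 in this order, with an adjusted p of 0.667 to 0.83 by edgeR. With DESeq2 on the 46 libraries the adjusted p was 0.01, 0.0148 and 0.0123. The locus near Gm17019 also passed with edgeR for all 48 libraries (adjusted p = 0.036), with DESeq2 size factors (0.0487) and with the replicate number as a block (0.00907).

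The 43 wide loci called lower in MS differed in kind from the 432 called higher. They had a median of 9.48 CpG per kb against 31.1, and 6 of the 43 were at least 50% masked against 340 of the 432. Of the 37 with less masking 29 had a second copy in the reference (50% or more of the locus aligned elsewhere at 95% identity or better), compared with 19 of 92 of those called higher. They gathered in 2 places: 19 were among the 35 wide loci on chromosome 1 between 85 and 89 Mb, among the nuclear body genes Sp110 and Sp140 and their duplicates and at Hjurp, and 17 lay on chromosome 5 between 14946486 and 15714668, among the Speer genes. The loci on chromosome 5 together had medians of 454 CPM without and 370 CPM with MS in Tph2+/+ mice, 452 and 388 CPM in Tph2+/- and 463 and 342 CPM in Tph2-/- mice, with ranges of 331 to 652 CPM in C and 249 to 559 CPM in MS libraries over all genotypes. By sample number their means were 453 ± 69.1 CPM in S1 to S17, 335 ± 68.2 in S18 to S26, 387 ± 84.3 in S27 to S41 and 496 ± 113 in S42 to S48 (SD). These sums were chosen by the contrast and carry no test. How many copies of these loci the animals carry was not measured. Both places were dense in wide loci, called or not. Chromosome 1 from 85000001 to 86000000 held 25, and chromosome 5 from 15000001 to 16000000 held 17.

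The interactions of genotype and MS were GE1, in which the MS effect of Tph2+/+ mice is subtracted from that of Tph2+/- mice, and GE2, with Tph2-/- in place of Tph2+/- mice, and both share the Tph2+/+ libraries. GE1 called 8 wide loci (0.204%) at the limits of the study, all of them lower, against a background of 0.626%. At an adjusted p under 0.05 edgeR called 0 of the wide loci and 0% of all loci, and DESeq2 called 0 of the wide loci. By edgeR 77 of the 3921 wide loci had an unadjusted p under 0.05. The median log2 fold change of the wide loci was -0.10, with -0.13 in those at least 50% masked, against -0.01 over all loci. The smallest p belonged to the 3 satellite-like loci, near Gm9637 (-0.50, SE 0.13), near Gm33780 (-0.48, SE 0.13) and at Mir101c (-0.52, SE 0.14). The study annotated the locus near Gm33780 to Gm10801 and listed it for GE1 among the genes changed in both methylation and expression. The locus near Gm9637 had medians of 24065 CPM without and 28120 CPM with MS in Tph2+/+ mice, and of 27094 and 24119 CPM in Tph2+/- mice, so the order of C and MS was opposite in the 2 genotypes. The ranges were 20600 to 27042, 25288 to 36305, 23630 to 33661 and 17562 to 30850 CPM.

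GE2 called 2 wide loci (0.051%) against a background of 0.558%, Apc2 (log2 fold change of 0.63, SE 0.21) and Agap3 (0.57, SE 0.19), both with coding exons and an adjusted p of 1 by edgeR. At the adjusted limit edgeR and DESeq2 called 0 of the 3921 wide loci, 22 of which had an unadjusted p under 0.05 by edgeR, and edgeR called 0% of all loci. Without S18 to S26 there were 17, of which 1 was higher. The locus next in p, near Gm36905 on chromosome 16, had a log2 fold change of 0.52 (SE 0.20) and missed the limit on p.

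In the gene lists, few wide loci passed the limits of the study. The shares called for MS to read the counts against were 3.63% of all loci and 12.1% of the wide loci, and the latter fell to 0.867% without S18 to S26. For MS there were 3 of 38 in giant cytoskeletal, extracellular and cadherin genes, 3 of 21 in chromatin and nuclear scaffold genes, 1 of 8 each in active-zone and postsynaptic scaffold genes and in imprinted genes, 1 of 5 in clustered protocadherins and 1 of 2 in stress axis genes, all higher in MS, and 0 of 2 in serotonin genes. The median log2 fold change for MS over these lists ran from 0.10 to 0.23, beside 0.12 over all wide loci and 0.00 over all loci. The stress axis locus was in Nr3c2 at chr8:77140367-77143674 (log2 difference of 0.24 ± 0.07, SE; adjusted p = 0.15 by edgeR). For genotype only Ahdc1 passed, and for GE1 and GE2 no listed locus did.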

How the data were processed

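MBD-seq libraries of 48 mice were used. Per the labels and methods, the authors mapped reads with Bowtie2 2.1.0 to GRCm38, called and merged peaks, and deposited raw read counts per merged peak made with DiffBind 2.0.9. How reads of repeated sequence were treated is not given in the sources used here. All 48 count columns matched a sample. Loci were annotated from RefSeq GRCm38.p6, whose lower-case bases were taken as masked repeats. For the contrasts, edgeR 4.0.16 under R 4.3.3 was run on these counts (TMM, robust quasi-likelihood fit, 1 term per group) over all 187695 loci, with Benjamini-Hochberg adjustment. The 2 Tph2-/- MS libraries left out of the study are not named in the labels, and those with the lowest totals, replicates 3 and 7, took their place. The fit was tested on simulated data. DESeq2 1.42.0 and other settings served as alternatives. Second copies were sought with minimap2 2.31 in wide loci under 50% masked.

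The limit of 3000 bp, the gene lists and the rule for named loci were chosen with earlier results of these data known. That rule takes the 10 widest loci, the 8 with the most and 5 with the fewest counts per kb, up to 5 per contrast at an adjusted p under 0.05 or else the 3 with the smallest p, those next to the width limit, up to 4 per gene list, the 10 widest under 10% masked, and genes with 3 or more wide loci. Nothing in the labels says that the mice of a group came from separate litters. Per the study's methods, litters rather than single pups were assigned to MS or C. Fewer litters per condition were kept than mice were sequenced, so some mice of a condition were littermates. The tests treated all mice as independent and took no account of this. Over 168 replicate pairs the chi-square per locus was 2.05 to 12.6 and no pair was identical.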

Additional observations from a re-analysis of the deposited data

Results flagged for a closer look

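The highest or lowest library of a group was compared with the rest by Dixon's test in 66 groups of values (the share of counts in wide loci, the loci lower in Tph2-/- mice, the loci named for MS, and Rn18s-rs5, Gm10925 and Plec), and 8 groups had a highest library that stood apart beyond Dixon's critical value, which chance alone also passes in a small share of groups. At Rn18s-rs5 this was the case in all 3 MS groups, with a highest library of 7951 CPM in Tph2+/+ MS, 4629 CPM in Tph2+/- MS and 8386 CPM in Tph2-/- MS, and these were S21, S22 and S19. The mean at this locus was 4094 ± 2719 CPM in S18 to S26 (SD, n = 8) and 1592 to 2029 CPM in the other runs of sample numbers. Plec had a highest library of 191.4 CPM in Tph2+/- MS and 350 CPM in Tph2-/- MS, again S22 and S19, with a mean of 183 ± 76.4 CPM in S18 to S26 (SD, n = 8) and 97.6 to 123 CPM in the others. The locus near Emid1 had a highest library of 83.3 CPM in Tph2+/- MS. In Tph2-/- C the highest library had 10.3 CPM at Gm9046 and 217.96 CPM near Smgc.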

How the results depend on the processing

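Counts of wide loci at the limits of the study depended on the libraries and the tool. With DESeq2 there were 14 for Tph2-/-, 7 for Tph2+/-, 15 for GE1 and 5 for GE2 in place of 8, 3, 8 and 2, and 315 for MS at an adjusted p under 0.05 in place of 0. With all 48 libraries there were 76 for Tph2-/-, 1275 (32.5%) for MS and 1 for GE1, and at the adjusted limit 0 for Tph2+/- and 3 for MS. When the 2 excluded libraries were Tph2-/- MS replicates 2 and 3 rather than those of lowest total, Tph2-/- had 5 and MS had 6.94% of the wide loci in place of 12.1%. Without S18 to S26 there were 6 for Tph2+/-, 34 (0.867%) for MS and 17 for GE2. Without loci over 0.5% of counts GE1 had 5, since its 3 satellite-like loci were then not tested. DESeq2 size factors gave 1 for MS at the adjusted limit. The CpG slope as a covariate, chosen after the data were seen, gave 14 for Tph2+/-, 34 (0.867%) for MS, 47 for GE1 and 11 for GE2, and 2 for Tph2+/- at the adjusted limit. Apart from these constructions the causes were not tested. All 4 wide loci lower in Tph2-/- mice kept their direction and their adjusted call in every alternative, and Gm9046 in Tph2+/- lost its call with all 48 libraries (adjusted p = 0.0934 by edgeR).

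The replicate number as a replicate block gave 5 for Tph2-/- at the limits of the study and 3 for MS at the adjusted limit, and moved no other count by more than 1.5 times. The labels do not say that a number marks a litter or batch. Deviations of same-numbered libraries from their group means correlated at a mean of 0.0152 over 110 pairs, with 11 pairs over 0.1. Libraries of other numbers had a mean of -0.002 over 770 pairs, with 49 over 0.1. For 8 of 46 libraries the best partner in another group shared the number. These values cannot decide whether same-numbered mice were related, since no litter or batch is given to compare them with.

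The density ratio of 1.92 became 2.45 with a limit of 5000 bp. Counts in wide loci per 1000 in narrower loci rose to 224, 241.3, 230, 236, 230 and 246 (unstressed before MS in each genotype, from Tph2+/+ through Tph2+/- to Tph2-/-) with a limit of 2500 bp, fell to 58.9, 62.5, 59.7, 61.1, 60.1 and 64.1 with 4000 bp, and were 496, 569, 548, 498, 508 and 524 with all loci kept. Depth limits the narrower loci most, with a median of 26.5 counts against 206 in wide loci.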
